A study of Rattus norvegicus with 6 samples.

Results

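The mitotic machinery genes described here are genes whose proteins carry a cell through mitosis, from mitotic entry to cytokinesis. The list is one of gene names, with kinesins left out, and no measured value enters its rule. Of 41 genes on the list, 40 had a row in the deposited table of 17833 genes and Ncaph was not analysed here. All 40 passed the filter on low expression and were among the 15150 genes tested.

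The study used a neonatal rat model of pulmonary vein stenosis, and the comparison asks which transcripts of the stenotic vein differ from those of the unbanded vein. Rats of the bilateral pulmonary vein banding (BPVB) group had their pulmonary veins (PVs) constricted on postnatal day 1, and rats of the sham group had the same operation without constriction. All animals were wild-type Sprague-Dawley rats, and the PV of the right upper lobe was collected on postnatal day 21. Bulk RNA-seq was available for 3 rats per group, with 23439506 to 29725808 fragments per library, and expression is given as fragments per kilobase of transcript and 1000000 fragments (FPKM), in which levels of different genes can be compared.

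A dividing cell replicates its DNA and then makes the proteins of mitosis in bulk. Cyclin-dependent kinase 1, with cyclins A and B, drives entry into mitosis. Condensins and topoisomerase II compact and untangle the chromosomes, kinetochores attach them to the spindle, and the spindle checkpoint holds the cell until every pair is attached. The anaphase-promoting complex then releases the sister chromatids, and the central spindle and the contractile ring divide the cell. Transcripts of these genes are low in resting cells and accumulate late in the cell cycle. Many of their promoters carry a cell cycle genes homology region (CHR), an element with the letters TTTGAA near the transcription start that is bound by the DREAM and B-Myb complexes, and CCAAT boxes bound by the factor NF-Y. In a growing vessel, dividing cells can be of any type in the wall or around it, and a bulk sample cannot tell a larger number of dividing cells from more RNA of these genes per cell.

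The promoters of 8 of these genes show these elements. The first 6 belong to genes with log2 fold changes above 1 from 5 roles, Ccnb1 shows the variant form of the CHR, and Smc2 had the smallest difference of the 40 genes. Each sequence is the sense strand of the 150 bases before the RefSeq transcription start in the rat assembly GRCr8, 5′ to 3′, and capitals mark TTTGAA, its variant TTTAAA and CCAAT on either strand, so that TTCAAA and ATTGG are the same elements read from the other strand.
Top2a (chr10:84473094-84473243, minus strand): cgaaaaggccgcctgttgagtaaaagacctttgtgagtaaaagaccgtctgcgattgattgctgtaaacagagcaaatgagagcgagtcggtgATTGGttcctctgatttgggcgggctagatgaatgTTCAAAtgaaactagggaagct
Cdk1 (chr20:19265143-19265292, plus strand): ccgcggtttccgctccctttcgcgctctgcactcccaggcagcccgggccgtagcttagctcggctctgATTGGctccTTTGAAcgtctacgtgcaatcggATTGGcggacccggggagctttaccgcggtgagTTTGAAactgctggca
Ccnb2 (chr8:79981659-79981808, minus strand): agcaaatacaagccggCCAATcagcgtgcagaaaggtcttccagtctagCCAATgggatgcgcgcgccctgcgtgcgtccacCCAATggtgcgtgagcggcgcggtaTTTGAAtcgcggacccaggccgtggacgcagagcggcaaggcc
Cdc20 (chr5:137255800-137255949, minus strand): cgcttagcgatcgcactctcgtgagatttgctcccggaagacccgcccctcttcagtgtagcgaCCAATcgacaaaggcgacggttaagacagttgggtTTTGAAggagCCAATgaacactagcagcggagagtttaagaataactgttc
Prc1 (chr1:143659331-143659480, plus strand): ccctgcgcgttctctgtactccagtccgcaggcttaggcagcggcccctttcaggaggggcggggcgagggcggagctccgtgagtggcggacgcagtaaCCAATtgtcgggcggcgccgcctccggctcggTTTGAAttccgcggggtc
Hmmr (chr10:25665216-25665365, minus strand): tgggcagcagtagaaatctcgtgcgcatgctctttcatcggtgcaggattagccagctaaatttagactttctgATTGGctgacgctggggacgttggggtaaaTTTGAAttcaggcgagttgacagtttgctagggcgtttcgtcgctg
Ccnb1 (chr2:33655226-33655375, minus strand): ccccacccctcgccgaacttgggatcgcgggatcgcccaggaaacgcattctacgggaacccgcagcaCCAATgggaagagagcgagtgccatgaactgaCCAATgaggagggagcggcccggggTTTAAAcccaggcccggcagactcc
Smc2 (chr5:71602255-71602404, plus strand): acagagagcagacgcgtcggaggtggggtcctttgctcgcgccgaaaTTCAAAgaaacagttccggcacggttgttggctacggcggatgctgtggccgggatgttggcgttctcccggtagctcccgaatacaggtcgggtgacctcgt
In the promoter of Prc1 the CHR began 18 bases before the start, and the nearer of its CCAAT boxes 50 bases before it. Ccnb2 held 3 CCAAT boxes, which began 134, 101 and 68 bases before the start, and a CHR followed 43 bases before the start, with another outside the sequence shown, at 214 bases. In Smc2 the CHR lay farther out than in the other sequences shown, 103 bases before the start, with no CCAAT box in these 150 bases. Outside the sequence shown, Smc2 held TTTAAA at position -242 from the start and a CCAAT box at -248. The only CHR of Ckap2, which had the largest log2 fold change of the 40 genes, began at position -126. Whether the position of an element goes with the size of the difference was not tested.

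RefSeq promoters, from 250 bases before to 50 bases after the start, were matched by NCBI Gene number for 33 of the 40 genes. Aurkb, Ccna2, Foxm1, Incenp, Racgap1, Tpx2 and Ube2c had no match. TTTGAA was found on either strand in 28 of the 33 promoters (84.8%), against 12.5% of the 12200 promoters of genes tested and 18.1% of 27457 promoters, 1 per gene. CCAAT was found in 25 of the 33 (75.8%), against 37.4% of the promoters of genes tested. TTTAAA was in 10 (30.3%), against 9.32%. Counted together, TTTGAA or TTTAAA was in 32 of the 33 (97.0%) and in 19.9% of the promoters of genes tested, and Spc24 was the exception. Ccnb1, Cenpe, Bub1 and Aurka had TTTAAA alone. Matches of different elements overlapped in 2 of the promoters. A match of letters does not show that a factor binds there, and the combined counts and the named exceptions were chosen after the single elements had been counted.

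**Figure D1:**
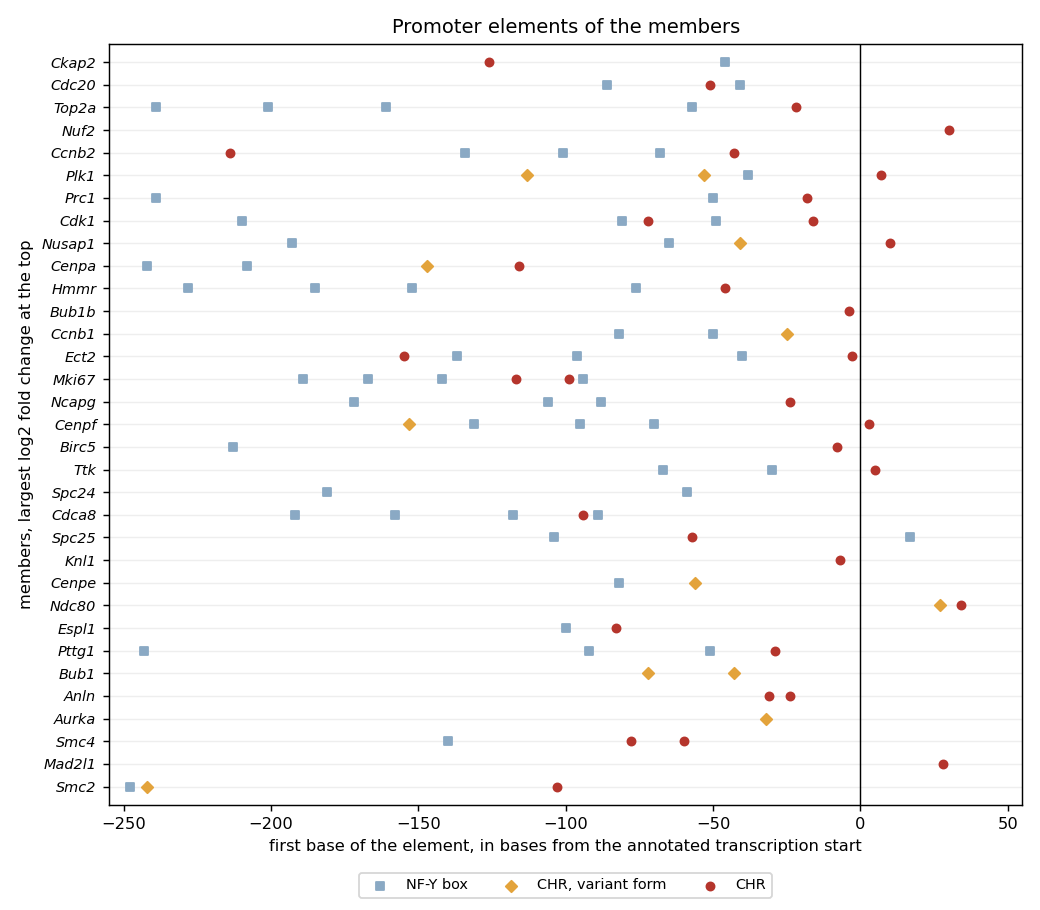
Position of each element in the promoters of 33 mitotic machinery genes (rows, largest log2 fold change at the top). The x axis gives the first base of the element in bases from the annotated transcription start, and the symbols stand for CHR, CHR variant and CCAAT box. The 34 CHR matches had a median position of -30 and the 57 CCAAT boxes a median of -101.

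The 34 TTTGAA matches began at a median of 30 bases before the start, with a range from 214 before to 34 after, and the 57 CCAAT boxes at a median of 101 bases before it. More than 1 CCAAT box was present in 18 of the 33 promoters (54.5%), against 13.1% of the promoters of genes tested. The E2F-like letters GCGGGAA and GCGCGAA, which are common in promoters of DNA replication genes, were found in 1 promoter each (3.03%), against 7.66% and 2.70% of the promoters of genes tested.

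In the BPVB group, 39 of the 40 mitotic machinery genes were expressed at a higher level than in the sham group by an adjusted p under 0.05 in limma, and Mad2l1 did not pass. Over all genes tested, 17.2% were higher by the same rule. The median log2 fold change of the 40 genes was 1.11, from 0.27 for Smc2 to 1.57 for Ckap2, on the scale of log2(FPKM + 0.5), and that of all genes tested was 0.02. None of the 40 was lower, by limma at the adjusted or the unadjusted p of 0.05 or by limma-voom. With a log2 fold change above 1 as well, 21 were differentially expressed genes (DEGs), against 2.24% of all genes tested that were higher and 1.03% that were lower by this rule. The added constant of 0.5 understates the change of low genes, and by the plain ratio of mean FPKM 30 of the 40 genes were more than 2-fold higher, 5 were between 1.5-fold and 2-fold and 5 were under 1.5-fold, with a median of 2.64-fold.

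Every BPVB library was above every sham library for each of the 40 genes. The same was true of 25.2% of all genes tested. Summed over the genes, the mitotic machinery held, of every 1000000 fragments, 644, 640 and 643 in BPVB rats 1 to 3 and 297, 307 and 295 in sham rats 1 to 3. The sums within a group were thus close to each other, while single genes varied more. The coefficient of variation between rats had a median of 9.39% in the BPVB group and 18.3% in the sham group. No library was high throughout, since the highest BPVB value fell in rat 1 for 10 genes, in rat 2 for 14 and in rat 3 for 16. In the sham group the highest value fell in rat 1 for 14 genes, in rat 2 for 19 and in rat 3 for 7. Fragments per gene and library ran from 20 to 2234.

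**Figure D2:**
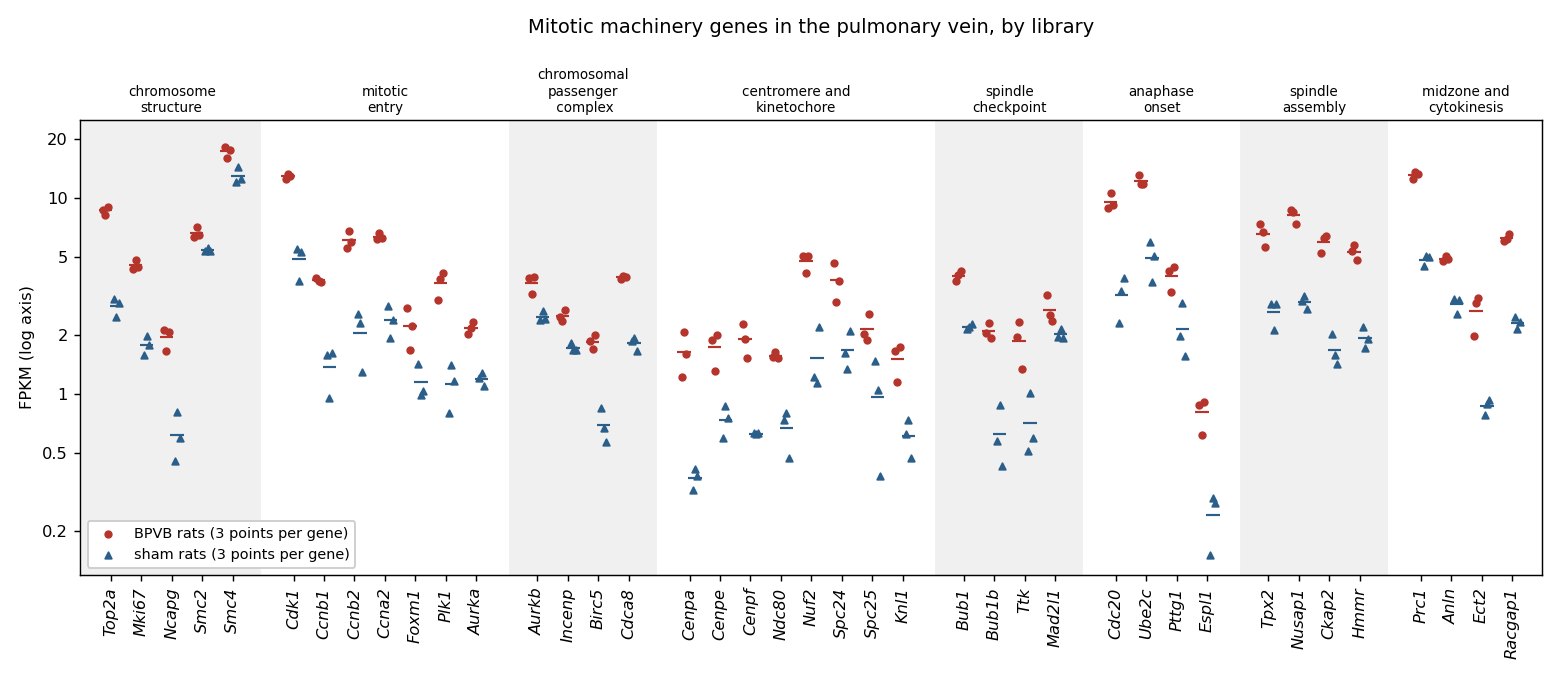
FPKM (log axis) of the 40 mitotic machinery genes (x axis, grouped by role) in each of the 3 BPVB libraries (red circles) and 3 sham libraries (blue triangles). For each gene the 3 BPVB points lie above the 3 sham points, and the lowest BPVB point is nearest to the highest sham point in Mad2l1, at a ratio of 1.09.

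All 5 genes of chromosome structure passed as higher after banding, and 3 were DEGs. Top2a encodes the topoisomerase that untangles sister DNAs before they part. Its FPKM was 8.65, 8.20 and 9.04 in the BPVB rats and 3.04, 2.46 and 2.93 in the sham rats. The lowest BPVB value was well above the highest sham value, and Top2a was 3.07-fold higher (log2 fold change 1.47, standard error [SE] 0.096, adjusted p = 7.1e-06). Mki67, which encodes the coat protein of mitotic chromosomes known as Ki67, had FPKM of 4.36, 4.85 and 4.43 in the BPVB rats and 1.58, 1.99 and 1.77 in the sham rats, with no overlap and a log2 fold change of 1.15 (adjusted p = 7.2e-05).

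The core subunits of condensin, the ring that compacts chromosomes, had smaller log2 fold changes. Smc4, the most abundant of the 40 genes, had FPKM of 18.2, 16.0 and 17.6 in the BPVB rats and 12.1, 14.3 and 12.5 in the sham rats. The groups did not overlap, and the log2 fold change was 0.40 (adjusted p = 0.0044). Its partner Smc2 had 6.36, 7.13 and 6.48 FPKM in the BPVB rats and 5.40, 5.55 and 5.36 in the sham rats. The groups did not overlap, but the ratio of the means, 1.22, was the smallest of the 40 genes (log2 fold change 0.27, adjusted p = 0.029), and the call was lost when any of 5 libraries was left out, all but the first BPVB library, with adjusted p-values of 0.055 to 0.10. Ncapg, which encodes a subunit of condensin I alone, was 3.15-fold higher (log2 fold change 1.14). The SMC2 and SMC4 proteins are shared by condensin I and condensin II.

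The 7 genes of mitotic entry all passed as higher after banding, 5 of them as DEGs, with a summed FPKM of 36 to 38.1 in the BPVB rats and 12.6 to 15.9 in the sham rats. Cdk1, the kinase that starts mitosis, had FPKM of 12.5, 13.2 and 12.9 in the BPVB rats and 5.52, 3.80 and 5.28 in the sham rats. The BPVB rats were alike, the second sham rat was the lowest, and its log2 fold change was 1.33 (SE 0.12, adjusted p = 5.8e-05). Ccna2, which encodes its partner cyclin A2, stood at 6.21, 6.61 and 6.26 FPKM in the BPVB rats and 2.82, 1.94 and 2.40 in the sham rats. The second sham rat was again the lowest, and the log2 fold change was 1.26 (adjusted p = 7.9e-05). On the scale of log2(FPKM + 0.5), Ccnb2 (cyclin B2) had the largest difference in this role, with FPKM of 5.57, 6.80 and 5.97 in the BPVB rats and 2.57, 2.29 and 1.30 in the sham rats. Here the third sham rat was the lowest, and Ccnb2 was 2.98-fold higher (log2 fold change 1.40, adjusted p = 5.8e-04).

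The smallest difference among the entry genes was in Aurka, the kinase of the spindle poles, with 2.03, 2.17 and 2.32 FPKM in the BPVB rats and 1.21, 1.28 and 1.10 in the sham rats (log2 fold change 0.66, adjusted p = 0.0024). Foxm1, a transcription factor that acts with the B-Myb complex on mitotic genes, was 1.93-fold higher (log2 fold change 0.71, adjusted p = 0.013). Plk1, a kinase of entry and exit, had the largest ratio of means in this role, 3.26-fold, and Ccnb1 (cyclin B1) was 2.76-fold higher.

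The 4 genes of the chromosomal passenger complex, which corrects wrong attachments at the centromere and later moves to the midzone, all passed as higher after banding, and none reached the fold change of a DEG. Aurkb, its kinase, had FPKM of 3.90, 3.25 and 3.96 in the BPVB rats and 2.39, 2.64 and 2.40 in the sham rats. The second BPVB rat was nearest to the sham rats, and the log2 fold change was 0.49 (adjusted p = 0.0082). Incenp, the scaffold, showed the smallest difference of the complex, with 2.49, 2.36 and 2.68 FPKM in the BPVB rats and 1.82, 1.69 and 1.68 in the sham rats (log2 fold change 0.43, adjusted p = 0.014). The subunits that target the complex had larger log2 fold changes. Birc5 (survivin) had 1.86, 1.70 and 2.0 FPKM in the BPVB rats and 0.850, 0.676 and 0.573 in the sham rats (2.65-fold, log2 fold change 0.98). Cdca8 (borealin) had 3.85, 4.01 and 3.96 in the BPVB rats and 1.87, 1.92 and 1.67 in the sham rats (2.17-fold, log2 fold change 0.94). With a constant of 0.1 in place of 0.5, the log2 fold changes of Birc5 (1.3) and Cdca8 (1.08) exceeded 1, so that their absence among the DEGs rests on that setting.

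Centromere and kinetochore genes were higher in 8 of 8 cases, with 3 DEGs and a median log2 fold change of 0.95. Most of them were expressed at low levels, and only Nuf2, Spc24 and Spc25 had a mean of at least 2 FPKM in the BPVB group. Nuf2, a subunit of the NDC80 complex that grips microtubules, had FPKM of 5.04, 4.17 and 5.09 in the BPVB rats and 1.23, 1.15 and 2.21 in the sham rats. The third sham rat was the highest of its group and still below all BPVB rats (log2 fold change 1.41, adjusted p = 5.6e-04). Ndc80, which encodes the partner of Nuf2, had the smallest log2 fold change of this role, 0.83, although its mean was 2.34-fold higher, with FPKM of 1.55, 1.65 and 1.52 in the BPVB rats and 0.740, 0.804 and 0.475 in the sham rats.

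Spc24 and Spc25 encode the other arm of the NDC80 complex. Spc24 had FPKM of 4.67, 2.94 and 3.79 in the BPVB rats and 1.63, 1.34 and 2.09 in the sham rats (log2 fold change 0.97, adjusted p = 0.0033). Spc25 had 2.03, 1.88 and 2.56 in the BPVB rats and 1.47, 1.05 and 0.382 in the sham rats. The third sham rat stood far below the other two and rested on 20 fragments, and the log2 fold change of 0.92 (SE 0.27, adjusted p = 0.028) lost its call when the first or the third BPVB library or the second sham library was left out, with adjusted p-values of 0.050 to 0.092. Without the third sham library the log2 fold change of Spc25 was 0.60 (adjusted p = 0.038). Cenpa, the histone variant that marks the centromere, showed the largest ratio of means of the 40 genes, 4.37-fold (log2 fold change 1.27), on a sham mean of 0.375 FPKM. Cenpf, the large protein of the outer corona, was 3.03-fold higher, and its 3 sham values of 0.632, 0.625 and 0.631 FPKM were the most alike of any gene here.

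Of the 4 spindle checkpoint genes, 3 passed as higher after banding and 1 was a DEG. The kinase Bub1 had FPKM of 3.76, 4.04 and 4.24 in the BPVB rats and 2.14, 2.19 and 2.27 in the sham rats, with little spread in either group and a log2 fold change of 0.74 (adjusted p = 4.6e-04). Bub1b, which encodes the inhibitor BUBR1, had 2.04, 2.29 and 1.94 in the BPVB rats and 0.576, 0.876 and 0.431 in the sham rats and was the DEG of this role (3.33-fold, log2 fold change 1.22). Mad2l1, the inhibitor that forms the checkpoint complex with CDC20, had 3.20, 2.53 and 2.35 in the BPVB rats and 1.96, 2.16 and 1.93 in the sham rats. The values did not overlap, but the nearest lay 0.19 FPKM apart, and its difference on the log2 scale, 0.34 with an SE of 0.13, did not pass (adjusted p = 0.077). In the other settings tried its adjusted p ranged from 0.062 to 0.23.

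Anaphase onset genes were higher in 4 of 4 cases. Cdc20, the activator of the anaphase-promoting complex, had FPKM of 8.87, 10.6 and 9.18 in the BPVB rats and 2.30, 3.34 and 3.93 in the sham rats. All BPVB values were more than 2-fold above the highest sham value, and the log2 fold change was 1.47 (adjusted p = 1.6e-04). Ube2c, the ubiquitin-conjugating enzyme of that complex, had 13, 11.8 and 11.7 in the BPVB rats and 5.95, 3.75 and 5.06 in the sham rats, with the second sham rat lowest (log2 fold change 1.24, adjusted p = 1.9e-04). Pttg1 (securin), the inhibitor destroyed at anaphase, had 4.24, 3.30 and 4.46 in the BPVB rats and 1.99, 2.91 and 1.56 in the sham rats. The second rat of each group brought the groups to within 0.4 FPKM, and the log2 fold change was 0.78 (adjusted p = 0.012). Espl1 (separase), the protease that securin inhibits, was 3.34-fold higher on a sham mean of 0.242 FPKM (log2 fold change 0.82).

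Spindle assembly genes had a median log2 fold change of 1.29, and all 4 were DEGs. Ckap2, a microtubule-nucleating protein of the spindle, had FPKM of 5.24, 6.24 and 6.38 in the BPVB rats and 2.03, 1.58 and 1.42 in the sham rats. The first rat of the BPVB group was its lowest and the first of the sham group its highest, and still the groups were 3.54-fold apart in their means (log2 fold change 1.57, SE 0.13, adjusted p = 3.4e-05). Nusap1, which bundles microtubules around chromosomes, had 8.64, 8.52 and 7.39 in the BPVB rats and 2.97, 3.18 and 2.73 in the sham rats (log2 fold change 1.33). The smallest difference was that of Tpx2, the activator of Aurora A, with 7.34, 6.71 and 5.62 in the BPVB rats and 2.87, 2.13 and 2.88 in the sham rats (log2 fold change 1.18). Tpx2 was thus 2.50-fold higher, against 1.82-fold for Aurka.

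The 4 genes of the midzone and cytokinesis were all higher, and 3 were DEGs. Prc1, the crosslinker of the central spindle, had FPKM of 12.5, 13.6 and 13.3 in the BPVB rats and 4.49, 5.05 and 5.0 in the sham rats. Both groups were tight, and Prc1 had the smallest adjusted p of the 40 genes (log2 fold change 1.35, SE 0.074, adjusted p = 2.5e-06). Racgap1, a subunit of centralspindlin, had 6.0, 6.17 and 6.53 in the BPVB rats and 2.46, 2.16 and 2.33 in the sham rats (log2 fold change 1.26), and its partner Ect2, the activator of RhoA, was 3.07-fold higher (log2 fold change 1.19). Anln (anillin), the scaffold of the contractile ring, was the exception, with 4.76, 5.06 and 4.90 in the BPVB rats and 3.06, 2.57 and 3.00 in the sham rats. Its values did not overlap and its log2 fold change was 0.68 (adjusted p = 7.6e-04).

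**Figure D3:**
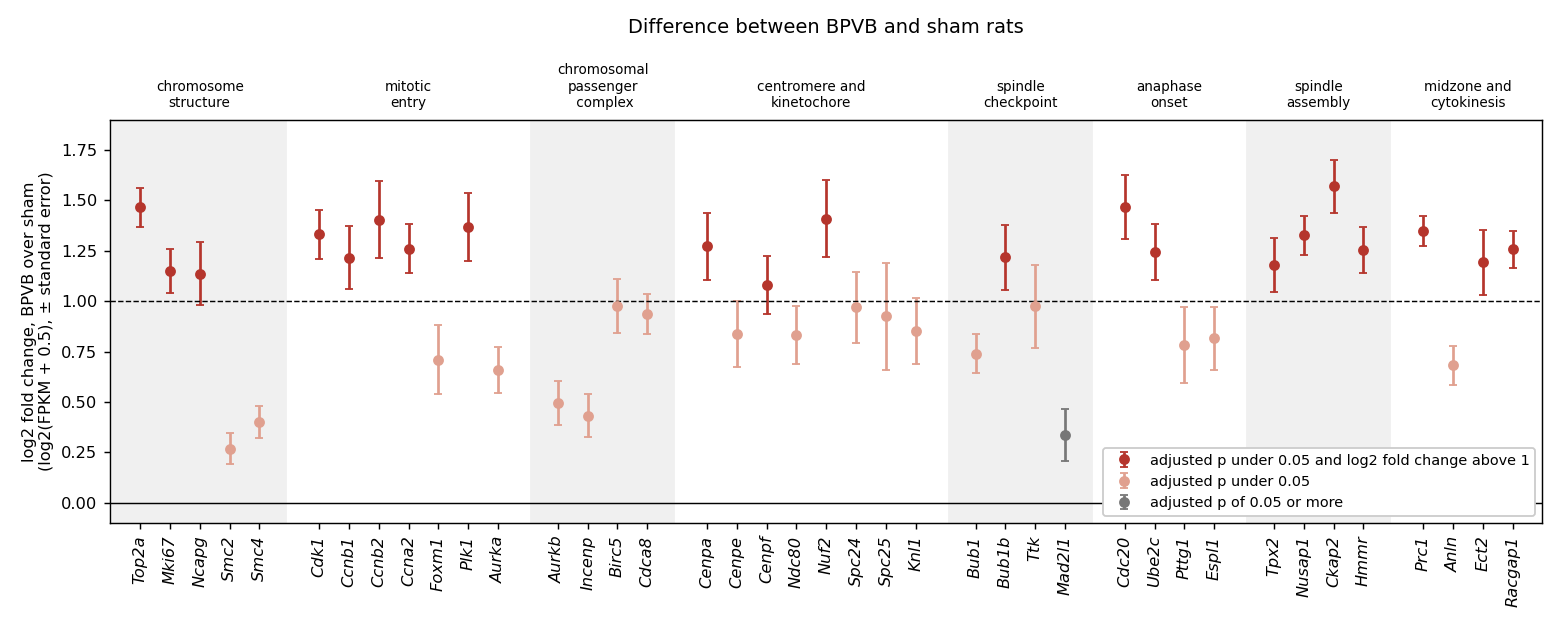
Log2 fold change, BPVB over sham, of the 40 mitotic machinery genes on the scale of log2(FPKM + 0.5), with bars of 1 standard error (limma, n = 3 per group), grouped by role. The 21 DEGs lie above 1, Smc2, Mad2l1, Smc4, Incenp and Aurkb are the lowest 5, and Mad2l1 alone has an adjusted p of 0.05 or more.

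A further 102 genes of mitosis, written down by complex, were read beside these 40. In limma, 39 were higher (38.2%), 1 was lower and 62 did not pass, with 14 DEGs and a median log2 fold change of 0.24. Over all genes tested, 17.2% were higher, 14.3% were lower and 2.24% were DEGs that were higher. The genes of the spindle and cytokinesis stood nearest to the mitotic machinery genes, with 13 of 17 higher and a median of 0.96, from -0.09 for Psrc1 to 1.34 for Ckap2l (3.68-fold) among those with a mean of at least 1 FPKM. Of 30 other kinetochore genes, 9 were higher with a median of 0.38, and those with a mean of at least 1 FPKM ran from Cenph (-0.45, adjusted p = 0.058) to Hjurp, the chaperone of Cenpa, at 1.16 (3.30-fold, adjusted p = 0.0033). The median was 0.16 for 11 genes of cohesin, the ring that holds sister chromatids together, with 5 higher, and at a mean of at least 1 FPKM Sgo2, the protector of centromeric cohesin, was the largest (1.08) and Pds5b the smallest (-0.26, adjusted p = 0.058). It was 0.08 for 14 genes of the anaphase-promoting complex, with 3 higher, and at the same mean level from -0.20 for Cdc26 (adjusted p = 0.11) to 0.74 for the inhibitor Fbxo5. It was 0.08 for 4 other condensin subunits, of which Ncapd2, a subunit of condensin I, was higher (0.64) and Ncapd3, of condensin II, was not called (-0.08, adjusted p = 0.65).

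Among 22 other mitotic regulators, 7 were higher and 1 was lower. Cks2, a small binding partner of Cdk1, had FPKM of 12.8, 12.9 and 12.6 in the BPVB rats and 3.21, 4.36 and 3.41 in the sham rats. It was 3.49-fold higher (log2 fold change 1.68, adjusted p = 5.2e-06). On the scale of log2(FPKM + 0.5) this was above all 40 mitotic machinery genes, whereas by the ratio of means Cenpa and Ckap2 were higher. Wee1, the kinase that holds Cdk1 inactive, had 7.18, 7.13 and 7.15 in the BPVB rats and 10.4, 9.21 and 9.32 in the sham rats. It was thus lower in the BPVB group without overlap, by a log2 fold change of -0.40 (adjusted p = 0.0026), while 14.3% of all genes tested were lower. Of 4 other checkpoint genes, Trip13 was higher in limma (log2 fold change 0.47, adjusted p = 0.034), but none of the 4 was called in limma-voom. The 2 ends among those of at least 1 FPKM were Mad2l1bp at -0.15 and Mad1l1 at 0.15.

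The genes of DNA replication, which act in the preceding S phase, were read in the same way. Of 46, 4 were higher (8.70%), 3 were lower and 39 did not pass, with a median log2 fold change of -0.08. Over all genes tested, 17.2% were higher and 14.3% were lower. Those higher were Rrm2 (1.18), a subunit of ribonucleotide reductase and the only DEG, Tk1 (0.66), a thymidine kinase, Uhrf1 (0.66), which maintains DNA methylation, and Mcm7 (0.32), a subunit of the replicative helicase. Those lower were Ccne1 (-0.69), which encodes cyclin E1, Pola2 (-0.64), a subunit of DNA polymerase alpha, and Rpa1 (-0.19), a subunit of the single-strand binding protein. These 7 genes were named after their values were seen.

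**Figure D4:**
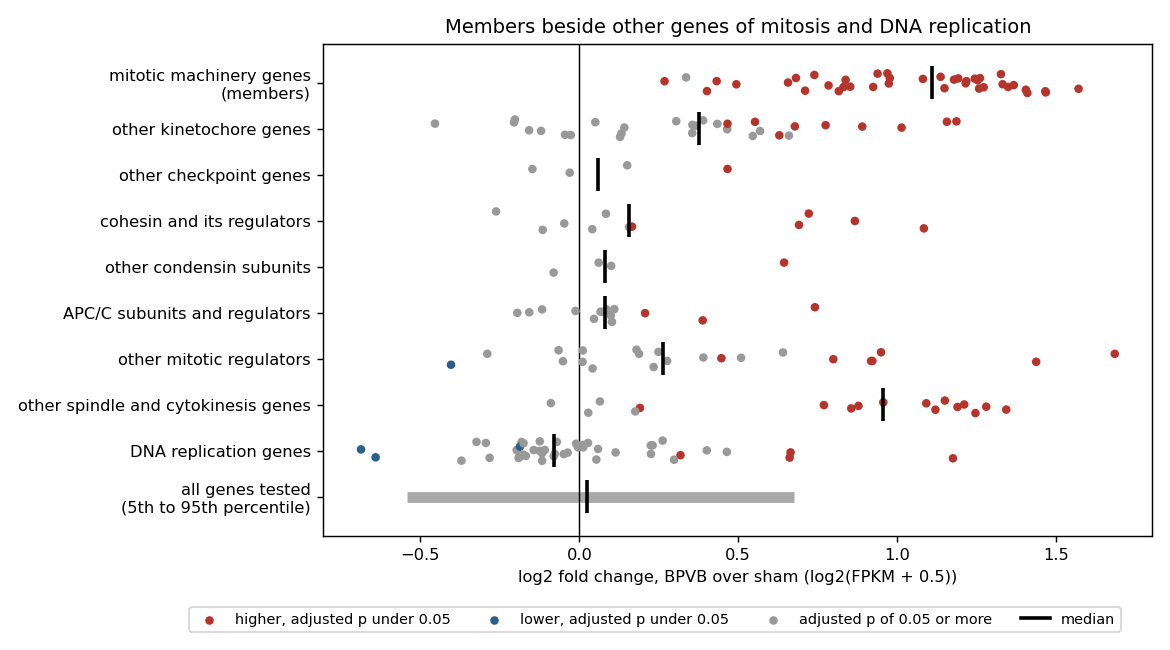
Log2 fold change, BPVB over sham, of each gene (points) in the mitotic machinery list, the other genes of mitosis by complex and the DNA replication genes, with the median of each as a bar and the 5th to 95th percentile of all genes tested (-0.54 to 0.68). The mitotic machinery genes center on 1.11, the other spindle and cytokinesis genes on 0.96, and the DNA replication genes on -0.08.

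The promoter elements were counted in these lists too. TTTGAA or TTTAAA was in 49.4% of the 89 matched promoters of the other mitotic genes, in 69.7% of those of the 33 called higher and in 37.5% of the 56 not called higher. The share was 13.9% in 36 promoters of DNA replication genes, of which 52.8% held one of the E2F-like letters, against 6.06% of the mitotic machinery promoters and 10.0% of the promoters of genes tested. Within the mitotic machinery, TTTGAA was in 16 of the 17 DEGs with a promoter and in 12 of the 16 other genes, and CCAAT was in 15 and 10. These shares were not tested.

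**Figure D5:**
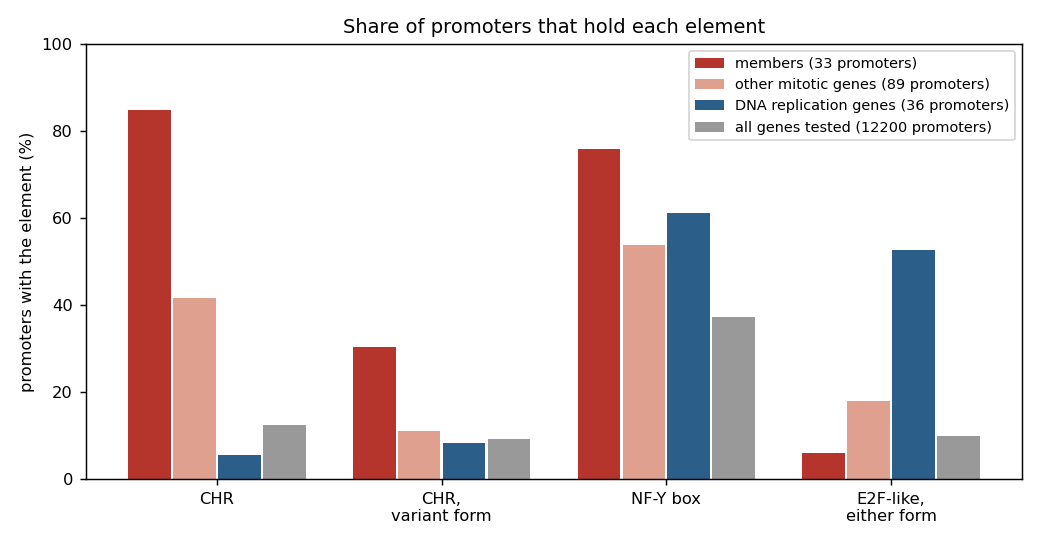
Share of promoters (y axis, %) that hold each element or pair of elements (x axis), for the mitotic machinery genes, the other mitotic genes, the DNA replication genes and the genes tested, with the number of promoters in the key. TTTGAA is in 84.8% of the mitotic machinery promoters, 41.6% of those of other mitotic genes and 5.56% of those of DNA replication genes.

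The deposited table gives GO terms for each gene, which name the roles that the genes were chosen for. Of the 40 genes, 15 carried kinetochore (37.5%, against 0.706% of all genes tested), 13 chromosome, centromeric region (32.5%, against 0.337%) and 12 midbody (30.0%, against 0.983%).

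Markers of cell types of the PV and of the tissue around it moved between the groups as well. Over all genes tested, 17.2% were higher and 14.3% were lower. All 10 markers of alveolar type 2 epithelium were higher in the BPVB group. Their summed FPKM was 560 to 606, against 62.5 to 64.0 in the sham group. In its single-cell data of the PV, the paper excluded epithelial cells as likely to come from lung tissue. Whether the BPVB samples held more lung tissue was not tested. Of 9 macrophage markers, 8 were higher, with 714 to 732 against 253 to 260. Of 8 fibroblast markers, 5 were higher and 2 lower (6871 to 6904 against 6012 to 6052). Lower were 5 of 8 markers of vascular smooth muscle (5410 to 5456 against 5818 to 5851), 5 of 8 of endothelium (1135 to 1155 against 1279 to 1286), 7 of 8 of atrial myocardium (16394 to 16837 against 22267 to 22685) and 3 of 8 of erythroid precursors (5733 to 7161 against 6507 to 8333), while 1 smooth muscle and 1 atrial marker were higher. The lymphocyte list was low in both groups (5.35 to 8.15 against 6.0 to 7.85 for 10 genes), with Cd3e, Cd3d and Ms4a1 under 1 FPKM in all libraries, and none of its genes passed in limma at the adjusted p or in limma-voom, with 1 lower at the unadjusted p of 0.05. Markers that define the labelled tissue, those of smooth muscle, endothelium and atrial myocardium, were thus present in all 6 libraries. The part of each cell type in the difference of the mitotic machinery genes was not tested, and which cells carried their transcripts cannot be told from bulk tissue.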

How the data were processed

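Bulk RNA-seq of the PV of 3 BPVB and 3 sham rats was used. The authors deposited 1 FPKM value per gene and library. The paper's methods name fastp, HISAT and HTSeq-count, whereas the processing notes with the labels list HISAT2 2.0.5, StringTie 1.3.3b, featureCounts 1.5.0-p3 and DESeq2 1.20.0, and the library kits named also differ. The genome build is not given in the sources used here.

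The groups were compared in R 4.3.3 with limma 3.58.1 (lmFit, eBayes with trend, two-sided) on log2(FPKM + 0.5). The 15150 genes whose mean FPKM reached 0.1 were tested and adjusted together by Benjamini-Hochberg. A DEG passed 2 thresholds, 0.05 for the adjusted p and 1 for the size of the log2 fold change. The planned tests assumed these FPKM, so a count model was not the main test. Fragments were recovered from the whole-number steps of the FPKM (100% of 17833 genes whole within 0.0001) and served for depth and for limma-voom with at least 10 fragments over all libraries. For the comparison of BPVB with sham, on simulated data with 15165 genes, 199 of 200 genes changed 4-fold (99.5%) and 15 unchanged genes were called. Nothing states that libraries of a group came from separate litters, so p-values measure the spread between these rats. The mitotic machinery genes, the other gene lists and the motifs were chosen with earlier results of these data known.

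Values per library are given, in each role, for the 2 genes with the highest mean FPKM and those with the largest and smallest log2 fold change, for Mki67, Top2a and Cdk1, and for any gene that did not pass. Among the other mitotic genes the largest and smallest log2 fold change per complex, at a mean of at least 1 FPKM, are named. Other genes named were chosen after their values were seen. Promoters came from RefSeq (GRCr8). Counting and plots used Python 3.11.15 with numpy 2.4.6, pandas 2.3.3, scipy 1.17.1 and matplotlib 3.10.9. No column of per-sample values was left unused. The alternatives were pseudocounts of 1 and 0.1, a mean FPKM of at least 1, no filter, median of ratios, TPM, quantile normalization, robust eBayes, limma-voom, the replicate number as a block, and leaving out each library.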

Additional observations from a re-analysis of the deposited data

How the results depend on the processing

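Under the alternatives 37 to 39 of the mitotic machinery genes passed as higher after banding and 0 as lower by limma or limma-voom, and none of those tested changed sign. All 40 were tested except at a mean FPKM of at least 1, where Espl1 was filtered out and 38 passed. Among the genes tested, Smc2 and Spc25 were those whose call was lost, Spc25 without a filter (adjusted p = 0.058) and Smc2 with the replicate block (adjusted p = 0.050), beside the libraries named above. The DEGs among the 40 were 15 with a pseudocount of 1, 30 with 0.1, with TPM and with limma-voom, and 20 to 23 without 1 library. Their median log2 fold change came to 0.85 with a pseudocount of 1, 1.31 with 0.1, 1.14 at a mean FPKM of at least 1, 1.28 with TPM, 1.00 after quantile normalization, 1.41 with limma-voom and 1.03 to 1.12 without 1 library. In the same order the median of the other mitotic genes was 0.21, 0.28, 0.15, 0.29, 0.19, 0.31 and 0.20 to 0.26, and 2 of them were lower at a mean FPKM of at least 1, 5 with median of ratios, quantile normalization or limma-voom, and 1 to 2 without 1 library (2 without the first or the third BPVB library). The median of the DNA replication genes was -0.068 with a pseudocount of 1, -0.10 with 0.1, with median of ratios and with limma-voom, -0.062 with TPM, -0.11 after quantile normalization and -0.092 to -0.067 without 1 library, and 5 of them were lower with median of ratios or limma-voom. Over all genes, DEGs higher were 611 with a pseudocount of 0.1, 518 with TPM and 715 with limma-voom, and DEGs lower 98 with a pseudocount of 1, 290 with 0.1 and 407 with limma-voom. The cause was not tested. Depth limits the low genes first, since the fewest fragments behind a value were 20 (Spc25 in the third sham rat). Deviations of rats with the same number in both groups had correlations of 0.025, 0.014 and 0.015. Those of the other pairs ran from -0.022 to 0.006. With 3 rats per group, these values cannot tell whether rats with the same number shared a litter or a batch. With the replicate block, 38 of the 40 genes were higher, and 40 of the other mitotic genes.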
